A study of Mus musculus with 2 samples.

Results

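Apolipoproteins and the proteins that carry dietary fat through the enterocyte were followed as a set of 10 genes: Apoa1, Apoa4, Apob, Apoc2, Apoc3, Mttp, Fabp1, Fabp2, Cd36 and Dgat1. They were chosen by name from the 27998 genes of the matrices and read in each annotated cell type of each library. The libraries came from the jejunum, the middle part of the small intestine, of 2 male mice that were 12 months old, labelled 375KO_set1 and 375KO_set2 and called mouse 1 and mouse 2 here. Both carried a deletion of the microRNA gene miR-375 in the whole body, made with CRISPR/Cas9, and the labels give their strain as C57BL6/2J while the extract protocol describes B6 albino animals. Crypts were dissociated into single cells and each mouse gave 1 droplet library, so all values are from 375KO cells, wild-type libraries were not analysed here, and no difference below measures an effect of miR-375.

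Dietary triglyceride is split in the gut lumen, and enterocytes take up the fatty acids and monoacylglycerol. Inside the cell, fatty acid binding proteins carry fatty acids through the cytosol, acyltransferases rebuild triglyceride at the endoplasmic reticulum, and microsomal triglyceride transfer protein loads it onto apolipoprotein B to form chylomicrons, which leave for the lymph. Crypts hold the stem and dividing transit-amplifying (TA) cells, while absorptive cells mature as they leave the crypt for the villus.

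The authors kept 2082 cells with 44017234 unique molecular identifiers (UMIs, each standing for 1 captured RNA molecule) in mouse 1 and 1193 cells with 22163354 UMIs in mouse 2, and named 10 cell types. The median cell held 16475 UMIs in mouse 1 and 15232 in mouse 2, while the median share of mitochondrial reads was 10.2% and 5.55%. No barcode was shared by the libraries. Of 54 markers of cell types, 47 were highest in their own type in both mice, among them all 6 enterocyte markers, none of which is a member. Only 3 of 6 TA markers were, since Pcna, Mcm4 and Mcm5 were highest in other types. The count was also 3 of 6 for secretory progenitors, and 5 of 6 for stem cells. Intraepithelial lymphocytes (IEL) should lack the members, but those of mouse 1 held some of their UMIs. Apoa1 was found in 52.0% of 50 IEL of mouse 1, at a median depth of 4110 UMIs for each cell, and in 0 of 18 IEL of mouse 2, at 10226 UMIs, which allows a share of up to 16.7%. In mouse 1 the level in IEL was 2.82% of that in enterocytes for Apoa1, 2.69% for Apoa4, 1.57% for Fabp1, 2.30% for Fabp2 and 5.55% for Mttp. A low level of a member in other cells of mouse 1 can therefore be background.

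The genes lie on 7 chromosomes (GENCODE M21, mm10). Apoa1 (chr9:46228580-46230466, plus strand), Apoc3 (chr9:46232933-46235636, minus strand) and Apoa4 (chr9:46240696-46243459, plus strand) sit together in 14880 bases. Apob lies at chr12:7977648-8016835 and Apoc2 at chr7:19671579-19677941. Fabp2 (chr3:122895072-122899506) and Mttp (chr3:138089854-138144968) share a chromosome, Fabp1 lies at chr6:71199827-71205023, Cd36 at chr5:17781690-17888801 and Dgat1 at chr15:76502015-76511953. RefSeq promoter windows (GRCm38.p6), from 250 bases before to 50 bases after the start, were matched for 8 members, all but Apoc3 and Dgat1. The windows of 2 pairs of members are printed because these pairs are compared below: the fatty acid binding proteins Fabp1 and Fabp2, which parted in goblet cells and in 1 enterocyte cluster, and the neighbours Apoa1 and Apoa4, each the nearest member to the other over the cell types. Capitals mark short words known from the sites of intestinal transcription factors, searched on both strands after the sequences had been seen. The word for HNF4 factors was CAAAGTNCA. The word for HNF1 factors was GTTAAT and that for the caudal factors was TTTATNG. For GATA factors TGATAA was searched, and also AGATAA, which shares its last letters with the former.
Fabp1 (chr6:71199629-71199928, plus strand): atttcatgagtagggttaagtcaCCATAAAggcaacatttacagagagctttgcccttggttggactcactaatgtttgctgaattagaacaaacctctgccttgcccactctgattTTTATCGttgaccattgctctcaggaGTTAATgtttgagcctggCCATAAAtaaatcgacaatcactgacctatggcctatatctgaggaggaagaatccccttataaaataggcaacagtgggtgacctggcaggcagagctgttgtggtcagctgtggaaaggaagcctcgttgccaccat
Fabp2 (chr3:122894822-122895121, plus strand): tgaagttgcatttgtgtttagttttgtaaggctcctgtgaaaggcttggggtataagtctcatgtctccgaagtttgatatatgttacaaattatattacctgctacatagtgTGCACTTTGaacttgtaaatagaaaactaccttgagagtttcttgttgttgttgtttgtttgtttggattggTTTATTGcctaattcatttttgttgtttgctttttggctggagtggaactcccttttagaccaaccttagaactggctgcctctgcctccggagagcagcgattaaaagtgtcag
Apoa1 (chr9:46228380-46228679, plus strand): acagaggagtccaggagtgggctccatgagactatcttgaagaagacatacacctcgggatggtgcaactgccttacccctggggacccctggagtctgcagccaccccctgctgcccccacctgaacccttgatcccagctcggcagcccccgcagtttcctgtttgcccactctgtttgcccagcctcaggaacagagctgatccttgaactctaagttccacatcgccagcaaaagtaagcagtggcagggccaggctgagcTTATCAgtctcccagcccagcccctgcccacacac
Apoa4 (chr9:46240594-46240893, plus strand): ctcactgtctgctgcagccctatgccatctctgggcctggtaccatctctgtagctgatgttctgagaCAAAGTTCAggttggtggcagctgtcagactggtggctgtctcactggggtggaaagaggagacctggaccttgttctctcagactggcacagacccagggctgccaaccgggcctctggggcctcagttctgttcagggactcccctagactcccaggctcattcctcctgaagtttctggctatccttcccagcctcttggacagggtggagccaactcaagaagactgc
CAAAGTNCA was found in the windows of Apoa4 and Fabp2, and in 1.41% of 27025 promoter windows in all. TTTATNG was found in 4 of the 8 windows (Fabp1, Fabp2, Apob and Apoc2) and in 11.3% of all windows; in Apob its letters overlap those of a TATA box. GTTAAT was found in Fabp1 and Apoc2 and in 7.20% of all, TGATAA in Apoa1 and Apoc2 and in 9.26%, and AGATAA in 0 of 8 and in 11.4%. A match is a description of the letters and not a site.

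Together the 10 genes held 4.70% of all enterocyte UMIs in mouse 1 and 2.85% in mouse 2 (3.78% ± 1.31, SD, n = 2). Among cells with at most 10% mitochondrial reads and at least 2000 genes the share was 1.23% in mouse 1 and 2.29% in mouse 2, so that the order of the mice turned. In the other types they held 0.260% at most, in goblet cells of mouse 1. Levels are given as UMIs per 1000000 UMIs (CPM), and since the kit reads 3′ ends they are not divided by gene length. All members but Apoc2 were highest in enterocytes in both mice.

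**Figure D1:**
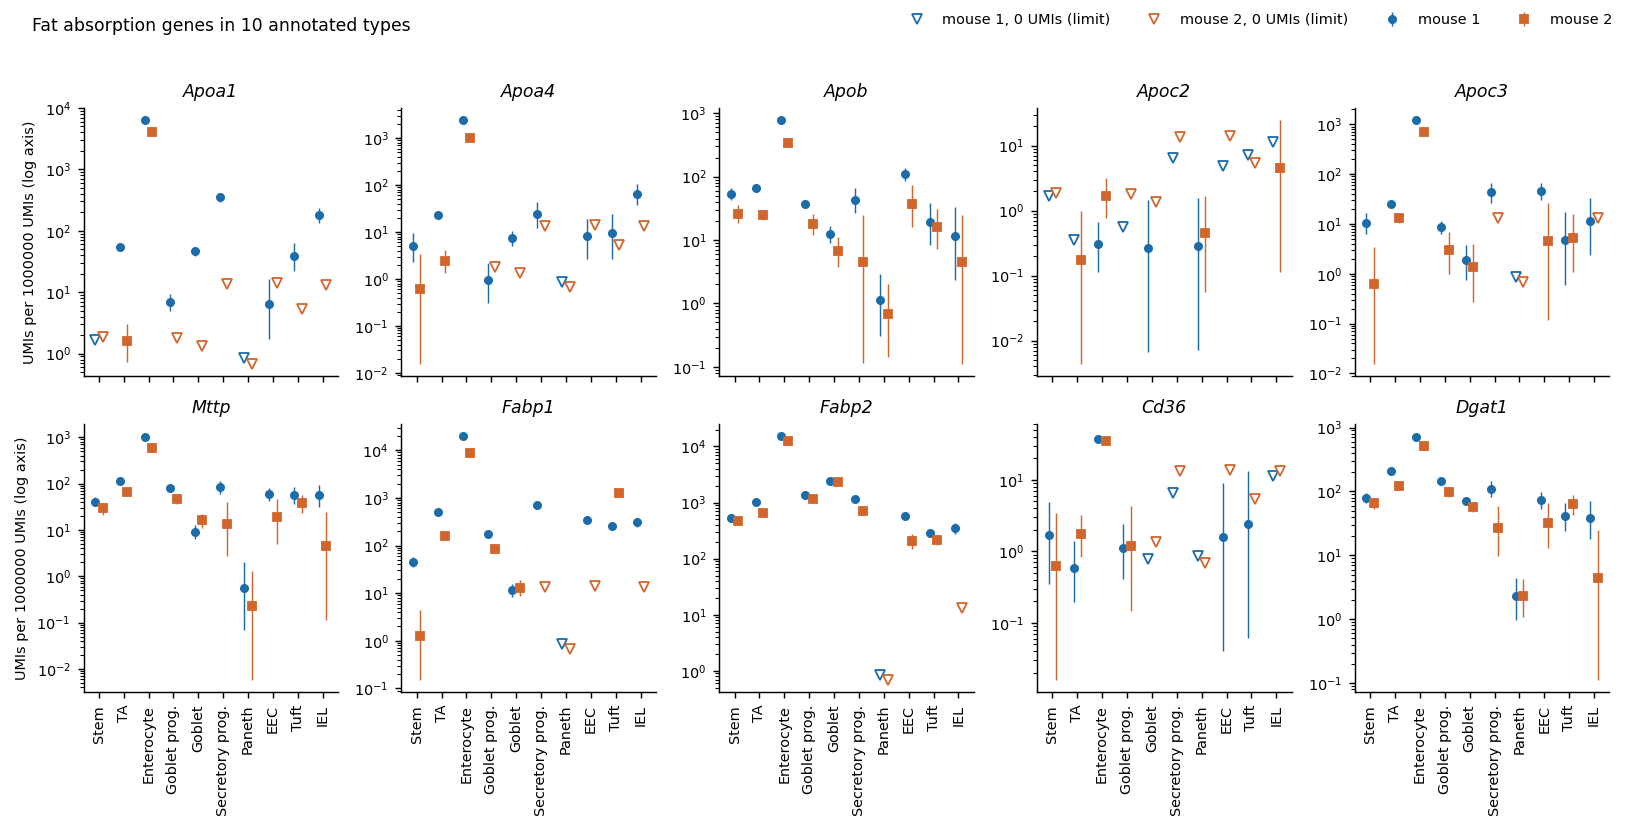
UMIs per 1000000 UMIs of each gene (vertical axis, log scale) in the 10 annotated types (horizontal axis). Circles are mouse 1 and squares mouse 2, bars are exact Poisson 95% intervals, which cover counting error only, and open triangles stand at the limit that a count of 0 allows. Enterocytes were highest for every gene but Apoc2, and Fabp2 was next highest in goblet cells in both mice, at 2443 and 2356.

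Among the apolipoproteins, Apoa1, the main protein of high-density lipoprotein, reached 6342 CPM in enterocytes of mouse 1 (95% interval 6306 to 6377) and 4137 CPM (4082 to 4191) in mouse 2. In stem cells and Paneth cells it had 0 UMIs in both mice, and in TA cells it had 54.9 and 1.57 CPM. There 1 TA cell carried 47.1% of the UMIs in mouse 1 and 77.8% in mouse 2. The mice parted in the remaining types: mouse 1 held 351.8 CPM in secretory progenitors and 46.0 CPM in goblet cells, where mouse 2 had 0 UMIs. In those sums 1 cell carried 98.1% and 86.8% of the Apoa1 UMIs of mouse 1, so they describe single cells rather than the types. Apoa4, a chylomicron protein induced by fat feeding, had 2411 and 1001 CPM in enterocytes and at most 64.7 CPM elsewhere, in IEL of mouse 1. Apoc3, an inhibitor of lipoprotein lipase, had 1211 and 714 CPM in enterocytes and at most 45.1 CPM elsewhere, in enteroendocrine cells (EEC) of mouse 1.

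Apob, the structural protein of chylomicrons, was also found outside enterocytes. It had 772 and 342 CPM there, and was next highest in EEC in both mice, with 109.6 CPM (95% interval 85.1 to 139) and 37.1 CPM from 8 UMIs. Stem cells (53.3 and 26.2 CPM) and TA cells (66.7 and 24.8 CPM) were close to each other, and TA cells did not differ from EEC beyond the spread between the mice (45.8 ± 29.6 and 73.4 ± 51.2 CPM, SD, n = 2). Goblet cells had 12.4 and 6.71 CPM and Paneth cells 1.14 and 0.687 CPM, the latter from 4 and 3 UMIs. With TMM scaling the Paneth values rose to 7.31 and 5.68, while those of goblet cells changed little. No order of goblet and Paneth cells is therefore read for Apob. Apoc2, the activator of lipoprotein lipase, was barely detected: 6 UMIs in enterocytes of mouse 1 (0.310 CPM, 95% interval 0.114 to 0.674) and 9 UMIs in mouse 2 (1.68 CPM, 0.769 to 3.19), with 2 UMIs or fewer in each other sum. No order of cell types can be read from it. All 9 UMIs of mouse 2 and all 6 of mouse 1 came from 1 enterocyte cluster, cluster 1.

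Mttp, the transfer protein that loads Apob with lipid, had 1029 and 588 CPM in enterocytes, 114.9 and 64.4 CPM in TA cells, 40.9 and 29.3 CPM in stem cells and under 1 CPM in Paneth cells. With TMM scaling the Paneth values were 3.66 and 1.89, beside 1018 and 548 in enterocytes. Dgat1, which makes triglyceride from diacylglycerol, had 714 and 516 CPM in enterocytes, 212 and 123 CPM in TA cells and 145 and 97.2 CPM in goblet progenitors. Stem cells had 79.6 and 65.5 CPM and goblet cells 70.6 and 57.2 CPM. Each type held at least 1 Dgat1 UMI in both mice, but some held few. Paneth cells were lowest, at 2.28 and 2.29 CPM from 8 and 10 UMIs, or 14.6 and 18.9 with TMM scaling. IEL had 38.1 CPM in mouse 1 and 1 UMI in mouse 2. TA cells and goblet progenitors overlapped in their Dgat1 spread (168 ± 62.5 and 121 ± 33.9 CPM, SD, n = 2). Cd36, a fatty acid translocase, had 36.9 and 35.3 CPM in enterocytes and 2.42 CPM at most elsewhere, and it was found in 42.5% and 29.3% of enterocytes.

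Fabp1, the liver type of fatty acid binding protein, had 19464 CPM in enterocytes of mouse 1 and 8639.9 CPM in mouse 2. Its level in tuft cells, a chemosensory type, was 256 and 1248 CPM, next highest after enterocytes in mouse 2 only, and 1 tuft cell carried 47.2% of those UMIs in mouse 1 and 53.6% in mouse 2. Stem cells had 45.4 and 1.25 CPM, TA cells 507 and 158 CPM, and goblet cells 11.6 and 13.0 CPM.

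Fabp2, the intestinal type, was high in goblet cells as well as in enterocytes. Enterocytes had 15045 CPM in mouse 1 and 12504 CPM in mouse 2, and goblet cells 2443 CPM (95% interval 2393 to 2493) and 2356 CPM (2292 to 2420), next highest in both mice. It was detected in each of the 277 goblet cells of mouse 1 and the 138 of mouse 2, with a median of 32 and 37 UMIs in a cell, and after thinning each cell to 5000 UMIs still in all 276 cells of mouse 1 deep enough to thin and in 98.6% of the 138 of mouse 2. The top goblet cell carried 1.95% and 1.82% of the UMIs, so no single cell set the value. Wide detection was not particular to goblet cells. Fabp2 was found in all 162 and all 84 goblet progenitors. It was found in 100% and 95.4% of TA cells and in 88.5% and 89.7% of stem cells. Fabp2 then fell from goblet progenitors (1251 ± 135 CPM, SD, n = 2) over secretory progenitors (946 ± 321), TA cells (823 ± 260) and stem cells (496 ± 50.5) to EEC (386 ± 257) and tuft cells (249 ± 54.5). The ranges of mean ± SD of neighbours in this order overlapped, except between goblet cells and goblet progenitors and between TA and stem cells. Paneth cells, another granule-bearing secretory type, had 0 Fabp2 UMIs in both mice, which allows up to 0.853 and 0.687 CPM before TMM scaling. In goblet cells Fabp1 had 0.0598% and 0.150% of its enterocyte level, against 16.2% and 18.8% for Fabp2. For Fabp1, 1 goblet cell carried 61.4% of the UMIs in mouse 1 and all 29 UMIs in mouse 2.

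Enterocytes were compared with the other epithelial types in sums per mouse and type (edgeR quasi-likelihood test, cell type and mouse as terms, Benjamini-Hochberg adjustment over 11013 genes). The authors named the types from the same cells, so a call describes how far the named classes stand apart. Apoc2 did not pass the filter on low counts. Against the mean of the 8 other epithelial types all 9 tested members were higher, beside 31.3% of all genes tested that were higher and 23.2% that were lower. Cd36, at 2.42 CPM or less elsewhere, passed the filter through its level in enterocytes. The log2 fold change was 11.88 (SE 0.77, adjusted p = 1.5e-05) for Apoa1, 10.12 (SE 0.28) for Apoa4, 8.58 (SE 0.88, adjusted p = 8.1e-05) for Fabp1, 8.14 (SE 0.20) for Apoc3, 7.15 (SE 0.34) for Cd36 and 6.34 (SE 0.14) for Fabp2. These 6 genes had 0 UMIs in Paneth cells of both mice, and Cd36 also in goblet cells and secretory progenitors, so the size of their fitted values depends on the prior count. Mttp (5.02, SE 0.17), Apob (4.83, SE 0.12, adjusted p = 9.2e-25) and Dgat1 (3.51, SE 0.13) had UMIs in each epithelial type of both mice, and no order is read between them and the other 6. Taken in each mouse alone, Fabp2 gave 5.85 and 5.87, Cd36 5.22 and 5.48, Mttp 5.13 and 5.00, and Apob 4.93 and 4.77. For Apoa1 the values of each mouse alone were 9.34 and 12.65, where 7 of the 8 other sums of mouse 2 were 0. From the counts themselves, Apoa1 was at least 3771-fold higher in enterocytes than in stem cells in mouse 1 and at least 2212-fold higher in mouse 2, taking 3 counts in each library as the limit of a 0.

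The step from dividing to absorptive cells was read as enterocytes against TA cells. Again all 9 tested members were higher, beside 29.1% of all genes higher and 22.6% lower. Cd36, at 0.592 and 1.75 CPM in TA cells, was again tested through its level in enterocytes. Log2 fold changes ran from 9.25 (SE 1.34, adjusted p = 0.00126) for Apoa1 and 7.83 (SE 0.45) for Apoa4 to 3.58 (SE 0.27) for Mttp and 2.31 (SE 0.20, adjusted p = 5.8e-10) for Dgat1. Fabp1 was the least certain, at 5.92 (SE 1.67, edgeR adjusted p = 0.0199), and it lost its call in a fit limited to cells with at most 10% mitochondrial reads and at least 2000 genes (edgeR adjusted p = 0.0615). Without the mouse term both Fabp1 (edgeR adjusted p = 0.105) and Apoa1 (0.0838) lost theirs.

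**Figure D2:**
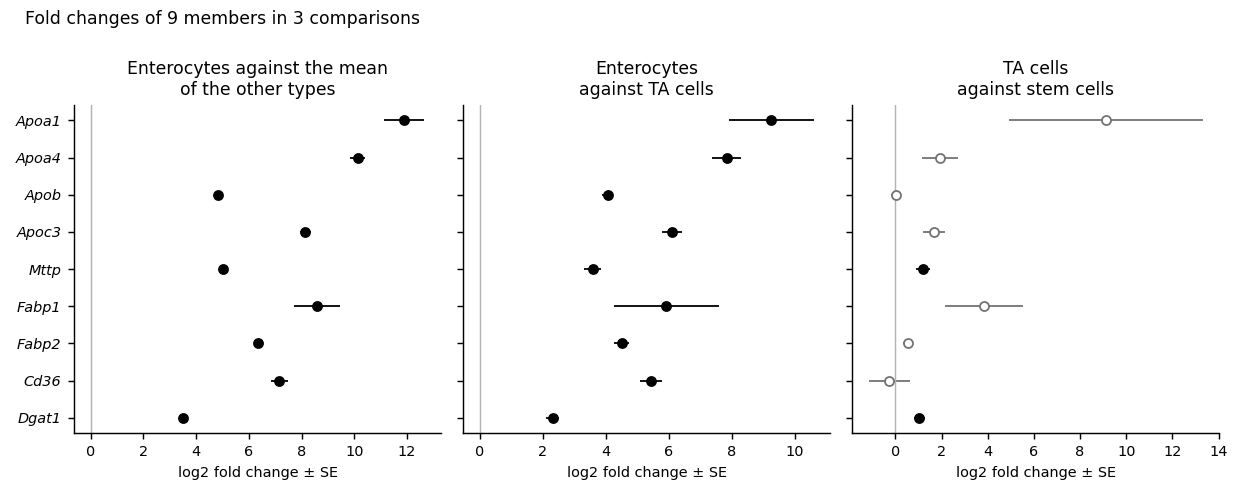
Log2 fold change (horizontal axis) with its standard error for the 9 members tested (vertical axis) in 3 comparisons of edgeR. Filled points passed an adjusted p of 0.05 and open points did not. All points of the enterocyte comparisons are filled, and TA cells against stem cells has 2 filled points, Mttp and Dgat1.

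Before that step few members passed the threshold. In TA cells against stem cells 2.93% of all genes were higher and 1.90% lower, and of the members Mttp (log2 fold change 1.202, SE 0.30, adjusted p = 0.0271) and Dgat1 (1.05, SE 0.22, adjusted p = 0.00368) were higher, while the other 7 tested did not pass. Fabp2 gave 0.57 (SE 0.21, adjusted p = 0.155), Apob 0.03 (SE 0.21), and Apoa1 9.12 with an SE of 4.19, a value set by the prior count, since stem cells had no Apoa1 UMI. Larger but uncertain values were Fabp1 3.84 (SE 1.68), Apoa4 1.93 (SE 0.77) and Apoc3 1.66 (SE 0.47, edgeR adjusted p = 0.0612). These were above 0 in each mouse alone, and Cd36 gave -0.26 (SE 0.88). The Mttp call was lost in 5 of the 8 alternative fits and the Dgat1 call in 1, the fit without the mouse term.

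Goblet cells set the members apart from each other. The pairs compared here were not fixed beforehand and were picked from a larger set of pairs in the same fit, so their calls are descriptive. Against TA cells 21.4% of all genes were higher in goblet cells and 22.1% lower. Fabp2 was the only member higher there (log2 fold change 2.09, SE 0.22, edgeR adjusted p = 4.4e-08). Apob (-1.72), Apoc3 (-3.14), Mttp (-2.38) and Dgat1 (-0.86) were lower, and Apoa1, Apoa4 and Fabp1 did not pass. Cd36 passed as lower, but it had 0 UMIs in goblet cells of both mice and 5 and 10 UMIs in TA cells. In mouse 1 a 0 in goblet cells allows up to 0.793 CPM, above the 0.592 CPM of TA cells. In mouse 2 it allows up to 1.34 CPM, beside 1.75 CPM. No direction is therefore read for Cd36. Enterocytes were higher than goblet cells in all 9 tested members, beside 23.9% of all genes, by 2.40 (SE 0.22) on the log2 scale for Fabp2 and by 10.01 (SE 2.07) for Fabp1. Against tuft cells, where 21.1% of all genes were higher in enterocytes, Fabp1 did not pass (4.07, SE 1.56, edgeR adjusted p = 0.0806) and the other 8 did. In both comparisons with enterocytes, Cd36 had passed the count filter through its level in enterocytes.

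Within the enterocyte class the authors numbered 5 clusters. Ordered by the summed level of the 6 non-member enterocyte markers, clusters 2, 6, 3 and 1 rose from 1424 to 8080.1 CPM in mouse 1 and from 615 to 7155 CPM in mouse 2. All members but Apoc2 rose along the same order in both mice, without exception. Since these cells themselves defined the clusters, the rise is described without a test. Apoa1 went from 119.7 to 13846 CPM in mouse 1 and from 21.6 to 16797 CPM in mouse 2. Apoa4 went from 25.1 to 7011 CPM and from 11.8 to 5387 CPM, the steepest rise in mouse 1, at 279-fold. Fabp1 rose 35.3-fold and 71.1-fold, Fabp2 24.5-fold and 48.6-fold, and Mttp 6.35-fold and 10.2-fold. Dgat1 was the flattest, from 364 to 957 CPM and from 225 to 932 CPM, or 2.63-fold and 4.15-fold. In cluster 1 the members held 10.1% and 10.9% of all UMIs, and in cluster 2 0.343% and 0.191%. The median mitochondrial share moved with the order, from 10.2% to 15.1% in mouse 1 and from 5.89% to 9.65% in mouse 2, and its part in the rise was not tested.

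**Figure D3:**
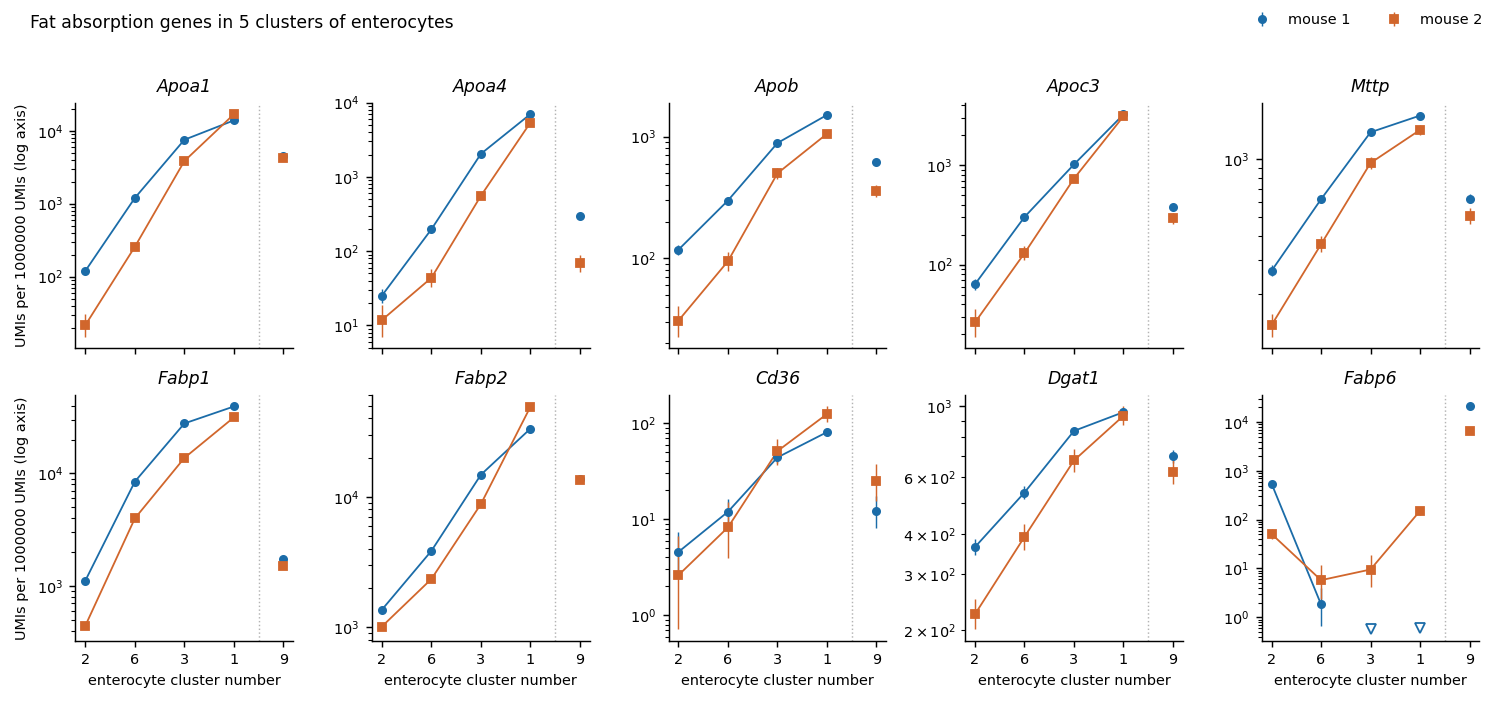
UMIs per 1000000 UMIs (vertical axis, log scale) of 9 members and of Fabp6 in the numbered enterocyte clusters (horizontal axis), ordered by non-member markers, with cluster 9 set apart by a dotted line. Circles are mouse 1, squares mouse 2, bars exact Poisson 95% intervals and open triangles the limit that a count of 0 allows. The members rose from cluster 2 to cluster 1 in both mice, and cluster 9 combined high Fabp6 with Fabp1 below clusters 6, 3 and 1.

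Cluster 9, with 99 cells in mouse 1 and 58 in mouse 2, broke the order. By the non-member markers it lay between clusters 6 and 3, at 5032 and 3917 CPM. Fabp6, the ileal bile acid binding protein, had 20948 and 6438 CPM there and 550.3 CPM at most in any other enterocyte cluster. Slc10a2, the ileal bile acid transporter, had 42.6 and 20.3 CPM against 4.53 CPM at most. Fabp1 was low, at 1729 and 1491 CPM, though above the 1117 and 443 CPM of cluster 2. The summed Fabp2 level was as high as in the middle of the order, at 13578 and 13387 CPM. The ratio of Fabp1 to Fabp2 CPM was thus 0.127 and 0.111, against 0.440 to 2.21 in the other 4 clusters over both mice. Apoa1 (4460.1 and 4216 CPM) and Apoa4 (297 and 68.8 CPM) parted in the same way: the ratio of Apoa4 to Apoa1 was 0.0665 and 0.0163, and 0.145 to 0.545 in the other clusters. Rbp2, the retinol binding protein of enterocytes, was low like Fabp1, at 982 and 1097 CPM, beside 19180.0 and 16220.4 CPM in cluster 1. Fabp6 was found in 69.7% and 58.6% of the cells of cluster 9 after thinning to 5000 UMIs, and in 72.7% and 65.5% before thinning. Fabp2 was uneven over these cells. After thinning, its median was 31 and 15 UMIs in a cell of cluster 9, and its 90th percentile 257 and 251. In cluster 3 the medians were 74.5 and 37.5 and the 90th percentiles 122 and 88.7. The summed levels of cluster 9 therefore do not describe its typical cell. The label of the tissue is jejunum, and the level of these ileal genes is given as measured.

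The members also moved together from cell to cell, and with the non-member enterocyte markers. Over enterocytes thinned to 5000 UMIs, the Spearman correlation of the 36 pairs of 9 members had a median of 0.70 in mouse 1 (930 cells) and 0.65 in mouse 2 (382 cells). Apoa1 and Fabp2 were the closest pair in both mice, at 0.88 and 0.87, and Cd36 and Dgat1 the least close, at 0.14 and 0.29. Within cluster 9 the median was 0.35 (99 cells) and 0.38 (58 cells). Over all thinned enterocytes each member was also correlated with the summed non-member markers. Those values ran from 0.29 for Cd36 to 0.79 for Apoa1 in mouse 1. In mouse 2 they ran from 0.37 to 0.80 for the same genes. The joint movement was thus not particular to the members. These cells share a library, and sparse genes such as Cd36 can give only weak correlations.

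Enterocyte levels were higher in mouse 1 for each of the 9 members other than Apoc2, by 2.41-fold for Apoa4, 2.26-fold for Apob, 2.25-fold for Fabp1 and 1.04-fold for Cd36, and each mouse has 1 library, so no test was made. The makeup of the class differed too: cluster 1 held 30.3% (95% interval 27.4 to 33.4) of enterocytes in mouse 1 and 18.8% (15.05 to 23.1) in mouse 2. With the 5 clusters weighted alike the ratio of mouse 1 to mouse 2 was 1.58 for Apoa4, 1.53 for Fabp1, 1.08 for Apoa1 and 0.90 for Fabp2. Among cells with at most 10% mitochondrial reads and at least 2000 genes, which leaves 148 of 931 enterocytes in mouse 1 and 307 of 382 in mouse 2, all 9 were lower in mouse 1. In mouse 2, 36 of the 100 sums of a member in a type were 0, and in mouse 1, 17. The study states that free RNA was removed by SoupX but not in which of the deposited files, and the part of that step in the zeros was not tested.

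The other genes of fat handling were read from 8 lists of 91 genes, of which 85 were tested. In enterocytes against the mean of the other types 66 were higher, 10 lower and 9 did not pass, beside 31.3% of all genes higher and 23.2% lower, and their median log2 fold change was 1.62, beside 0.03 over all genes tested. In enterocytes against TA cells 59 were higher and 4 lower, beside 29.1% and 22.6% of all genes. In TA cells against stem cells 9 were higher and 3 lower, beside 2.93% and 1.90%. The counts of each list that follow are for enterocytes against the mean of the other types, and stand beside the same 31.3% and 23.2%. Of 9 genes of fatty acid uptake and activation 6 were higher, led by the transporter Slc27a4 (4.52, SE 0.17, 230.04 and 215.96 CPM in enterocytes) and the acyl-CoA synthetase Acsl5 (3.45), while the synthetases Acsl4 (-2.32) and Acsl3 (-1.002) were lower. Of 10 genes of triglyceride resynthesis 9 were higher, led by the monoacylglycerol acyltransferase Mogat2 (6.57, SE 0.30, 395 and 249 CPM), Gpat3, listed as Agpat9 (3.82), and Dgat2 (3.68), and Gpat4 was lower (-0.52, SE 0.19). Of 12 genes of chylomicron assembly and export 10 were higher and 0 lower, led by the transcription factor Creb3l3 (6.18, SE 0.20), Tm6sf2 (4.82) and Pla2g12b (3.88). These are proteins of the regulation, lipid loading and secretion of lipoproteins.

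**Figure D4:**
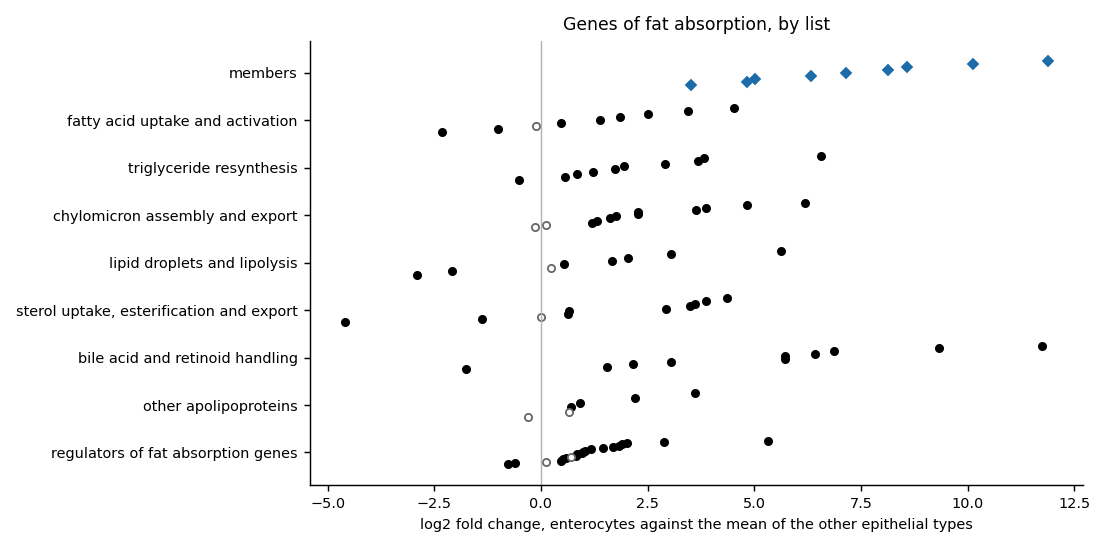
Log2 fold change of enterocytes against the mean of the other epithelial types (horizontal axis) for the members and for 8 lists of fat handling genes (vertical axis), with 1 point for each gene tested. Filled points passed an adjusted p of 0.05 in edgeR, open points did not. The members span 3.51 to 11.88, and points left of 0 are genes lower in enterocytes.

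Of 8 genes of lipid droplets 5 were higher, led by Cidec (5.63), and the lipase Mgll (-2.895) and the lipolysis inhibitor Hilpda (-2.07) were lower. Of 10 sterol genes 7 were higher, among them the cholesterol transporters Abca1 (4.35), Npc1l1 (3.87) and Abcg5 (3.62), and the 2 esterifying enzymes went apart, with Soat2 higher (3.499) and Soat1 lower (-4.59, SE 0.39). The lipoprotein receptor Scarb1 was lower too (-1.37, SE 0.57, adjusted p = 0.0406). Of 10 genes of bile acid and retinoid handling 9 were higher, led by Fabp6 (11.74, SE 0.81), Rbp2 (9.33) and Slc51b (6.87), and Bco1 was lower (-1.76). Of 12 other apolipoproteins 6 were tested and 4 were higher, led by Apol7a (3.61) and Apoa2 (2.21, 10.1 and 5.42 CPM in enterocytes). Of 20 regulators 16 were higher, led by Maf (5.32) and Nr1h3 (2.89), and Klf4 (-0.76) and Cdx1 (-0.62) were lower. Klf4 was higher, however, in enterocytes than in TA cells (2.20).

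The genes most like the members over the 18 sums were found by Pearson correlation with the mean of their standardised log2(CPM + 1) values, among 3837 genes. They were Creb3l3 (0.95), Slc51b (0.95), Idh1 (0.95), Mep1b (0.94), Ephx2 (0.94), Reg3a, Arg2, Rdh7, Abhd6 and Leap2, the last at 0.92. Among the members Apoc3 followed the mean most closely (0.96), and Fabp2 (0.77) and Apoc2 (0.48) least. The gene most like each member was Cyp3a13 for Apoa1 (0.92), Leap2 for Apoa4 (0.97), Ckb for Apob (0.95), Gda for Apoc3 (0.94), Khk for Mttp (0.97), Apol10a for Fabp1 (0.93), Tmem205 for Fabp2 (0.98), Hsd17b6 for Cd36 (0.93), St3gal4 for Dgat1 (0.98) and Pdzk1 for Apoc2 (0.68). Among the members themselves, Apoa1 and Apoa4 were each other's nearest (0.95), and Mttp and Dgat1 likewise (0.95). The sums share 2 libraries, so these values carry no test.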

How the data were processed

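Jejunal crypt cells of 2 375KO mice were profiled with a 10x Genomics 3′ kit, with 1 library for each mouse. The authors aligned reads to mm10 with Cell Ranger 3.0.1 and deposited UMI counts for each gene and barcode as whole numbers. They state removal of free RNA with SoupX, removal of doublets, filters on genes and mitochondrial reads, and clustering in Seurat (3.2.1 in the submitters' processing notes). Cells and types are those of the deposited annotation, whose rows were tied to barcodes through the column order of the combined count table, with equal totals in 3275 of 3275 cells. Genes were read from the matrices of each library, whose cell totals exceeded the annotation's by 1.29% at most. Columns of 2937 cells from another series were not used. The deposited mitochondrial values are percent of UMIs on mitochondrial genes, called mitochondrial reads here after the wording of the study. Depth-corrected counts and doublet scores were not used.

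UMI counts were summed for each mouse and type, giving 18 epithelial sums of at least 10 cells, and fitted in edgeR 4.0.16 (filterByExpr, TMM, robust quasi-likelihood, cell type and mouse as terms, 8 residual degrees of freedom, two-sided, adjusted p under 0.05 over all genes tested). The mouse term pairs sums of the same animal. On simulated counts of 10285 genes, changes of log2 size 2 were recovered in 92 of 100 genes, and of size 1 in 46 of 100 for enterocytes against the other types and 22 of 100 for enterocytes against TA cells. The simulated counts had 1 fixed dispersion, 0.05, and no mouse difference, and types differed only in the changed genes. These rates therefore do not give the recovery in the measured counts. P values reflect the spread over types of 2 mice. Poisson and Clopper-Pearson 95% intervals, and the limit of 3 counts for a 0, cover counting error only. Named genes were all members, up to 5 genes of each list by size of change past the threshold, those against its direction, and the nearest genes by correlation; Fabp6, Slc10a2 and Rbp2 in clusters, and the motifs, were chosen after values or sequences were seen. The members and lists were chosen with earlier results of these data known. The comparisons of goblet cells with TA cells, and of enterocytes with goblet and tuft cells, were not fixed beforehand and were picked from a larger set. Alternatives were DESeq2 1.42.0, no TMM, no count filter, a stricter cell filter, thinning to 5000 UMIs, no mouse term, IEL or no Paneth cells in the fit, and each mouse alone.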

Additional observations from a re-analysis of the deposited data

How the results depend on the processing

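All 9 tested members stayed higher in enterocytes than in the mean of the other types in all 8 alternative fits, and with either mouse alone 9, 9 and 8 of them had fold changes above 0 in the 3 comparisons. The fit with no replicate block, which drops the pairing of sums from the same mouse, called 3946 genes in place of 6006 for enterocytes against the other types, 2843 in place of 5694 for enterocytes against TA cells, and 70 in place of 532 for TA against stem cells. Thinning to 5000 UMIs gave 3613 in the first and 349 in the last, and no filter on low counts gave 834 in the last. Of the members, 2 were higher in TA than in stem cells, and this count was 6 with no filter, 5 after thinning, 0 with no replicate block, and 1 with DESeq2, the stricter cell filter, IEL in the fit, or Paneth cells left out, the last chosen after seeing the data. Among members not called in that comparison, the stricter filter reversed Apoa4 (-1.03), Apob (-0.022) and Cd36 (4.41), and thinning reversed Cd36 (2.30). The members' share of enterocyte UMIs was 3.78%, 1.76% under the stricter filter (1.23% in mouse 1 and 2.29% in mouse 2, the reverse of the main order), and 2.85% to 4.70% with 1 mouse left out. Without TMM, 1797 genes were higher and 4134 lower in enterocytes than in TA cells, beside 3208 and 2486, and the median gene moved to -0.35. DESeq2 split enterocytes against the other types into 2964 higher and 3080 lower, beside 3447 and 2559, and TA against stem cells, at 323 and 209, became 622 and 212 with no filter and 430 and 132 with no TMM. Depth limits Apoc2 and Cd36 outside enterocytes, where sums held few UMIs. The causes of these changes were not tested.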
